A study of Saccharomyces cerevisiae with 18 samples.

Results

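Gene expression was compared between budding yeast that lack Rad6, a ubiquitin-conjugating enzyme, and yeast that lack Bre1, a ubiquitin ligase that works with it. The comparison held 6 of the 18 libraries of the study, 3 of the rad6Δ strain and 3 of the bre1Δ strain, chosen by their labels, and all 5630 genes that passed a filter on low counts. The rad6Δ strain carried the chromosomal allele rad6Δ::KanMX and the bre1Δ strain bre1Δ::KanMX. Both held the empty centromeric TRP1 vector pRS314 and shared the background alleles ura3-52, his3, trp1Δ and a leu2 allele that holds mutations 3 and 112. The bre1Δ strain kept its own untagged RAD6 gene. Another strain, called WT, is used below to place the values: it carried rad6Δ::KanMX with a V5-tagged wild-type RAD6 (Rad6-3V5) on a centromeric TRP1 plasmid. WT and bre1Δ thus differ in more than BRE1, since Rad6 is plasmid-borne and tagged in WT but chromosomal and untagged in bre1Δ. All strains grew in synthetic medium without tryptophan at 30 °C. Each strain gave 3 independent RNA isolates, and poly(A) RNA was sequenced. The labels name 1 strain for each genotype, so differences between rad6Δ and bre1Δ belong to these isolates.

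Rad6 serves several ubiquitin ligases. With Bre1 it attaches a single ubiquitin to histone H2B, a mark of transcribed chromatin that is needed for methylation of histone H3 by Set1 and Dot1. With Ubr1 it marks proteins of the N-degron pathway and the repressor Cup9 for degradation. With Ubr2 it promotes turnover of Rpn4, the activator of proteasome genes, and with Rad18 it ubiquitinates PCNA, the DNA polymerase clamp, during the bypass of DNA damage. Loss of Bre1 removes the histone branch and leaves the enzyme for the others, whereas loss of Rad6 removes it from all of them, so the comparison asks which transcripts depend on Rad6 beyond Bre1.

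The 6 libraries held 5654417 to 10800185 counts each. Nuclear noncoding genes took 20.0% to 24.2% of the counts in rad6Δ and 17.7% to 21.9% in bre1Δ. The bre1Δ replicates lay further apart than the rad6Δ replicates, with a chi-square per degree of freedom between pairs of 25.1 to 31.1 against 10.2 to 20.3. The labels give mating type a, but the transcripts went against this in every library compared: the a-factor genes MFA1 and MFA2 summed to 0.570 to 3.31 CPM (counts scaled to a common library total), whereas the alpha-factor gene MF(ALPHA)1 stood at 1122 to 1729 CPM.

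The deleted genes were read first, as a check of the labels. RAD6 (YGL058W, chrVII:393986-394504, build R64) stood at 3.75, 4.36 and 4.77 CPM in the rad6Δ libraries, at 106, 104 and 93.4 CPM in bre1Δ and at 157, 147 and 143 CPM in WT. BRE1 (YDL074C, chrIV:324047-326149) stood at 2.12, 1.25 and 1.78 CPM in bre1Δ, at 125, 142 and 141 CPM in rad6Δ and at 136, 147 and 139 CPM in WT. Each gene was near 0 only in its own deletion strain. The rad6Δ level of BRE1 differed from WT by a log2 fold change of -0.05 ± 0.07 (SE; adjusted p = 0.596), and RAD6 in bre1Δ was lower than in WT by -0.56 ± 0.09 (adjusted p = 6.54e-05), where WT reads come from the plasmid copy. GEP7, the gene next to RAD6, stood at 35.2 ± 5.66 CPM in WT (SD, n = 3), 12.6 ± 0.197 in rad6Δ and 14.8 ± 1.40 in bre1Δ, and did not pass the test between the deletions (adjusted p = 0.443). TRP1, the marker of the plasmid in every strain, stood at 365, 282 and 379 CPM in rad6Δ and at 236, 194 and 199 CPM in bre1Δ, and was higher in rad6Δ (log2 fold change 0.70 ± 0.11, adjusted p = 6.89e-05). The part of the TRP1 difference in other results was not tested.

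In all, 1170 of 5630 genes (20.8%) differed between rad6Δ and bre1Δ at an adjusted p of 0.05 in edgeR's quasi-likelihood test, which gives every adjusted p below; such genes are called higher or lower. Of these, 502 (8.92% of genes tested) were higher in rad6Δ and 668 (11.9%) were lower. These shares are the background for every count of list members or motif carriers below. The split depended on the scaling: with library totals alone, 770 genes were higher and 356 lower. Differences of at least 2-fold were few, 51 genes (0.906%), of which 14 were higher in rad6Δ and 37 lower. The deleted genes are included, BRE1 among the higher and RAD6 among the lower. The 3 and 3 values did not overlap for 1836 genes (32.6%). The larger changes lay on the low side, as the plot of all genes shows. The lowest value of all belonged to YOR387C, a near-identical copy of VEL1 with a log2 fold change of -6.47 ± 0.81, which was named after its value was seen.

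**Figure D1:**
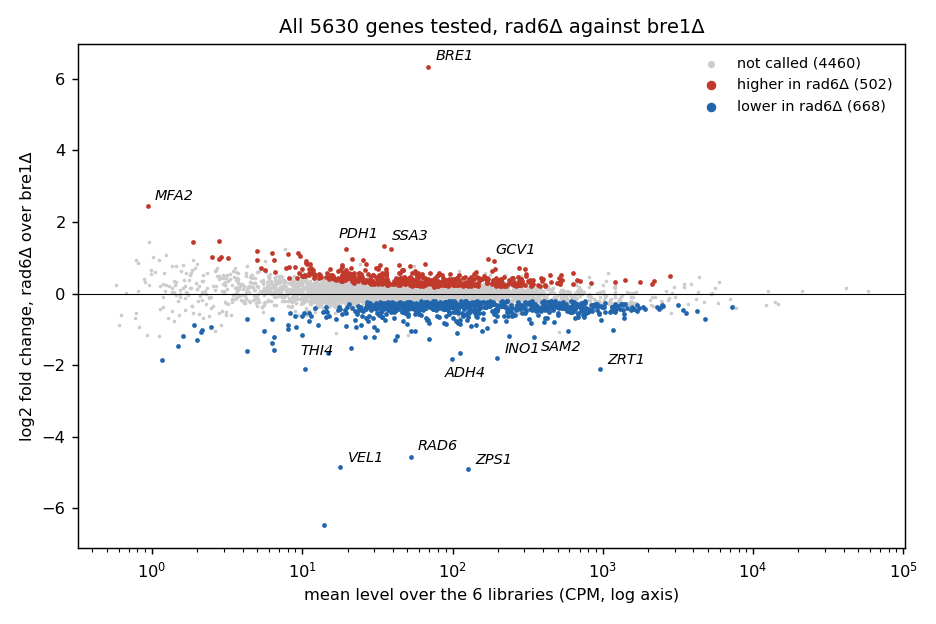
Log2 fold change of rad6Δ over bre1Δ (vertical) against the mean level over the 6 libraries in CPM (horizontal, log axis), 1 point per gene tested. The 502 genes higher in rad6Δ are red, the 668 lower genes blue and the others grey. YOR387C, which bears no label, and ZPS1, VEL1 and RAD6 lie below -4, and BRE1 lies above 6. Most called genes lie between -1 and 1.

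Short stretches of promoter are shown for 4 groups, the proteasome, zinc, phospholipid and iron genes described below, since these are the letters that their regulators are known to bind. All are from RefSeq, build R64, read 5′ to 3′ on the strand of the gene from within 300 bases before its first codon, with the motif in capitals; matches were sought on both strands, and no motif searched holds another. The proteasome-associated control element (PACE, GGTGGCAAA), bound by Rpn4, is shown for the 6 carriers among proteasome subunit genes with the lowest adjusted p:

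RPT1, chrXI:174049-174075, plus strand: ttaccgaatTTTGCCACCcgaaaacta
RPT5, chrXV:544856-544882, plus strand: ccaatatgtGGTGGCAAAaatgaatta
RPT3, chrIV:1261496-1261522, plus strand: tgaaagtaaGGTGGCAAAatagtaaat
PRE7, chrII:141151-141177, plus strand: aactcaaagGGTGGCAAAaacaagcgg
SCL1, chrVII:475338-475364, minus strand: acacaccaaTTTGCCACCgtaaggata
RPT4, chrXV:813803-813829, minus strand: atagtggaaTTTGCCACCgaagggaaa

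The zinc response element (ACCTTNAAGGT), bound by the activator Zap1, was found in these 2 members of the zinc list:

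ZRT1, chrVII:20765-20793, plus strand: acatatttgACCTTGAAGGTcatggaaag
MCD4, chrXI:140776-140804, minus strand: gaaaaaaaaACCTTAAAGGTaaaaagaac

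The core of the inositol-sensitive element (CATGTGAAA), bound by Ino2 and Ino4, is shown for the carriers with the lowest adjusted p in the phospholipid list:

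INO1, chrX:136159-136185, minus strand: taaatgcggCATGTGAAAagtattgtc
ITR1, chrIV:1445671-1445697, minus strand: tccccaccgCATGTGAAAaaagctcga
CHO1, chrV:208619-208645, minus strand: cctttgagcTTTCACATGgacccatct
CPT1, chrXIV:380978-381004, minus strand: attaaagtgCATGTGAAAattcgcggg

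The core of the site of Aft1 (TGCACCC), the activator of iron uptake genes, is shown by the same rule for the iron list:

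FIT2, chrXV:1059391-1059415, plus strand: aatctaactGGGTGCAgtataatta
TIS11, chrXII:416816-416840, minus strand: catgcagttGGGTGCAttgtgccag
ARN1, chrVIII:21216-21240, minus strand: ttatcaaaaTGCACCCataaaagca
FET3, chrXIII:388562-388586, plus strand: cttcaaaagTGCACCCatttgcagg

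Genes of zinc uptake and zinc economy were lower in rad6Δ than in bre1Δ. Of 18 members of the zinc list tested, 13 were lower and 0 higher (72.2% called against 20.8% of all genes). The median log2 fold change was -0.39 against 0.01 over all genes tested. With library totals alone, 8 were lower. ZPS1 (YOL154W, chrXV:34658-35407), which encodes a cell-surface protein made when zinc is short, stood at 7.63, 7.24 and 9.81 CPM in rad6Δ, at 240, 216 and 278 CPM in bre1Δ and at 252, 180 and 250 CPM in WT. The rad6Δ values lay far below those of both other strains, which overlapped each other (-4.91 ± 0.23 against bre1Δ, adjusted p = 1.87e-10; bre1Δ against WT 0.10 ± 0.17, adjusted p = 0.651). ZRT1 (YGL255W, chrVII:20978-22108), the high-affinity zinc transporter, stood at 376, 366 and 333 CPM in rad6Δ, at 1505, 1453 and 1682 CPM in bre1Δ and at 1435, 1453 and 1667 CPM in WT. Its difference between the deletions was -2.11 ± 0.10 (adjusted p = 1.02e-12), with the zinc response element printed above 193 bases before the first codon.

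ADH4 (chrVII:15159-16307), an alcohol dehydrogenase isozyme induced by zinc shortage, followed the same order, with 42.1, 45.1 and 43.4 CPM in rad6Δ, 173, 132 and 160 in bre1Δ and 179, 128 and 165 in WT (-1.83 ± 0.17, adjusted p = 1.46e-06). VEL1 (chrVII:11110-11730), a gene of unknown function induced in zinc-depleted cells, had a different pattern: 1.17, 1.13 and 1.23 CPM in rad6Δ, 40.6, 26.4 and 36.9 in bre1Δ and 5.65, 2.32 and 4.71 in WT. It was the bre1Δ libraries that stood highest here (3.01 ± 0.42 over WT, adjusted p = 8.08e-05), and the split of reads between VEL1 and its near-identical copy is uncertain. ZAP1, the activator itself, stood at 36.0, 34.4 and 33.6 CPM in rad6Δ and at 72.2, 67.1 and 74.0 in bre1Δ, with no overlap (-1.03 ± 0.20, adjusted p = 0.00164). The exact zinc response element was found in 2 of 18 list promoters (11.1%) and in 6 of 5606 promoters in the table (0.107%); both list carriers were lower in rad6Δ, as were 11 of the 16 members without a match. ZRT1, ADH4 and VEL1 lie near each other at the left end of chromosome VII. ADH4 and VEL1 lie within 20 kb of the end, and ZRT1, which starts at base 20978, lies just outside. Of 136 tested genes within 20 kb of a chromosome end, 19 were higher in rad6Δ and 10 lower, with a median of 0.12. This is 21.3% called, near the 20.8% over all genes. Without rad6Δ replicate 1, 9 were higher, and without rad6Δ replicate 2, 10.

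**Figure D2:**
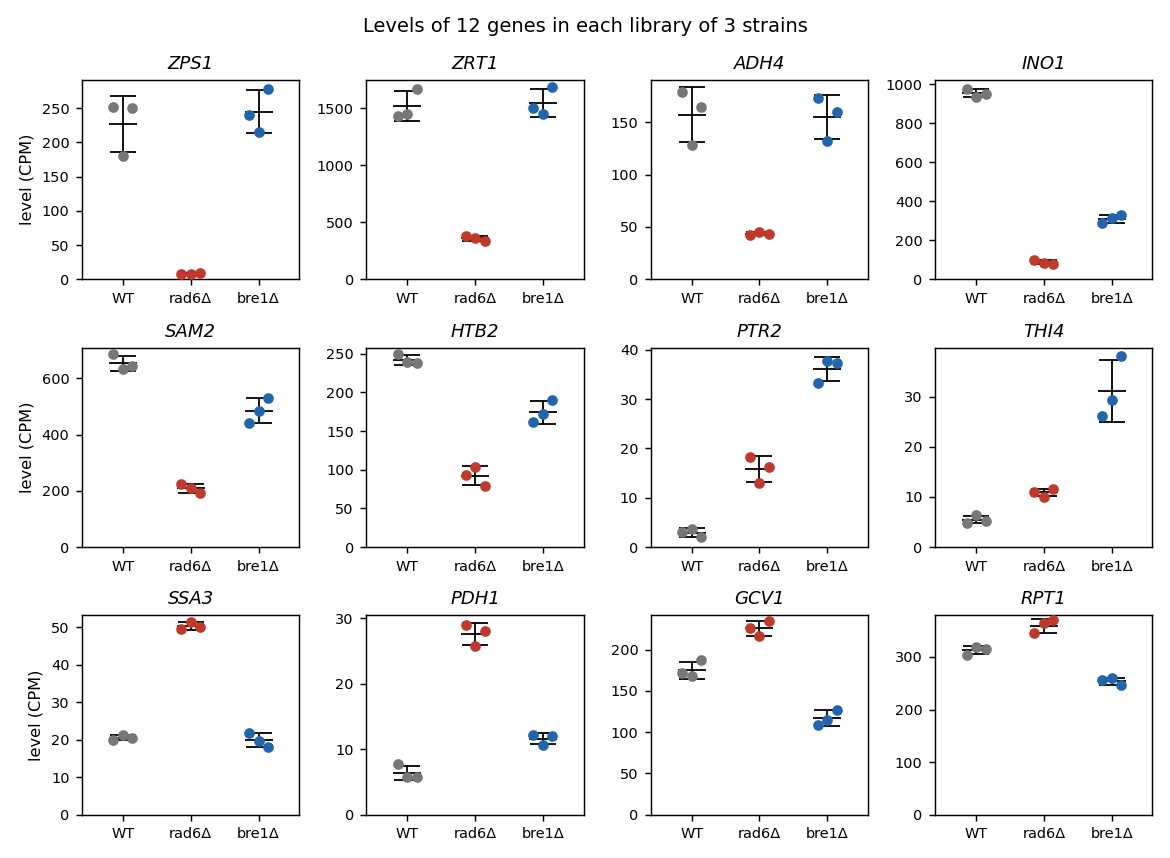
Level in CPM (vertical, linear, from 0) of 12 genes in each of 3 libraries of WT, rad6Δ and bre1Δ; points are libraries and bars the mean ± SD. ZPS1, ZRT1 and ADH4 are low in rad6Δ alone; INO1, SAM2 and HTB2 lie lowest in rad6Δ and between in bre1Δ; PTR2 and THI4 are highest in bre1Δ; SSA3, PDH1, GCV1 and RPT1 are highest in rad6Δ.

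Iron uptake genes, most of them targets of Aft1, were lower in rad6Δ at 9 of 27 members and higher at 0 (median -0.18). That is 33.3% called against 20.8% of all genes. FIT2, a cell-wall mannoprotein that retains siderophore iron, stood at 42.9, 41.8 and 37.0 CPM in rad6Δ, at 111, 85.4 and 99.5 in bre1Δ and at 97.3, 83.1 and 95.5 in WT (-1.28 ± 0.11, adjusted p = 2.52e-08). The rad6Δ values lay apart from the other two strains. ARN1 and ARN2, siderophore transporters, differed by -0.61 ± 0.10 and -0.73 ± 0.11, and TIS11, which degrades messages of iron-using enzymes, by -0.69 ± 0.10. The Aft1 core was found in 14 of 27 list promoters (51.9%) against 1.32% of all promoters; 5 of the 14 carriers were lower in rad6Δ, as were 4 of the 13 others. With library totals alone, 6 members were lower.

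INO1 (YJL153C, chrX:134332-135933), the inositol-3-phosphate synthase and the classic target of Ino2 and Ino4, was lowered in both deletions and further in rad6Δ. It stood at 98.2, 85.7 and 80.1 CPM in rad6Δ, at 288, 312 and 328 CPM in bre1Δ and at 978, 936 and 952 CPM in WT. The 3 strains did not overlap: rad6Δ lay below WT by -3.44 ± 0.11 (adjusted p = 2.41e-16), bre1Δ by -1.63 ± 0.10 (adjusted p = 1.16e-10), and the deletions differed by -1.81 ± 0.10 (adjusted p = 2.89e-11). Of 20 genes of inositol and phospholipid synthesis, 9 were lower in rad6Δ than in bre1Δ and 0 higher, with a median of -0.29. That is 45% called against 20.8% of all genes. PSD1, a phosphatidylserine decarboxylase, stood at 62.9 ± 2.30 CPM in rad6Δ and 98.7 ± 10.7 in bre1Δ, against 191 ± 7.46 in WT (-0.64 ± 0.07 between the deletions). EPT1 of the ethanolamine branch differed by -0.52 ± 0.08 and ITR1, the inositol transporter, by -0.46 ± 0.08. The element printed above was found in 7 of the 20 promoters (35.0%) against 0.482% of all promoters, and 4 of the 7 carriers and 5 of the 13 others were lower. Among 26 ergosterol genes 7 were lower and 0 higher (26.9% called against 20.8% of all genes). With library totals alone, 2 were lower and 1 higher. Without rad6Δ replicate 3, 3 were lower, and without bre1Δ replicate 3, 4.

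Histone genes were lower in rad6Δ. Of 11 tested, 8 were lower and 0 higher (72.7% called, median -0.48). HTB2, which encodes histone H2B, the substrate of Rad6 and Bre1, stood at 93.4, 104 and 79.0 CPM in rad6Δ, at 161, 172 and 190 in bre1Δ and at 249, 239 and 238 in WT. The 3 strains did not overlap (-0.91 ± 0.09 between the deletions, adjusted p = 1.80e-07). HTB1, the other H2B gene, stood at 257 ± 4.61 CPM in rad6Δ, 359 ± 15.6 in bre1Δ and 411 ± 24.7 in WT (-0.48 ± 0.08, adjusted p = 0.000123). HHF2, a histone H4 gene, stood at 168, 165 and 169 CPM in rad6Δ and at 295, 280 and 287 in bre1Δ (-0.78 ± 0.07, adjusted p = 6.57e-08). Histone genes are transcribed in S phase. Of 36 DNA replication genes, 6 were higher in rad6Δ and 1 lower (median 0.11). That is 19.4% called, near the 20.8% over all genes. Of 16 G1 cyclins and their targets, 1 was higher and 3 lower (25% called), CLN2 by -0.58 ± 0.10. For the replication genes, 1 was higher with the 6 libraries alone in the fit, and 2 or 3 were higher without rad6Δ replicate 2 or 3 or bre1Δ replicate 1.

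Among the 25 genes of the H2B ubiquitination branch and its readers (the Bre1 partner Lge1, the Paf1 complex, Set1 and Dot1 methylation, ubiquitin proteases), 1 differed, below the share over all genes. SWD1, a subunit of the Set1 complex, was higher in rad6Δ by 0.32 ± 0.09 (adjusted p = 0.0165), a call lost with the 6 libraries alone (adjusted p up to 0.0890 over the alternatives) and without any of 4 single libraries, rad6Δ replicate 1 or 3 or bre1Δ replicate 1 or 2. Without bre1Δ replicate 2, 3 other members were higher. The list median was 0.03.

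The Ubr1 branch showed both directions. PTR2 (chrXI:615730-617535), the importer of small peptides that Cup9 represses, stood at 2.96, 3.75 and 2.07 CPM in WT, at 18.2, 12.9 and 16.2 in rad6Δ and at 33.2, 37.8 and 37.3 in bre1Δ. Both deletions were above WT, rad6Δ by 2.35 ± 0.23 and bre1Δ by 3.56 ± 0.21 (adjusted p = 4.18e-08 and 1.04e-10), and rad6Δ lay below bre1Δ by -1.21 ± 0.16 (adjusted p = 2.44e-05). CUP9, whose protein is a substrate of Ubr1 with Rad6, stood at 39.2, 41.9 and 41.3 CPM in rad6Δ, below the 65.4, 49.3 and 50.7 CPM of bre1Δ (-0.44 ± 0.10, adjusted p = 0.00323). UBR1 was higher in rad6Δ, at 305 ± 17.5 against 249 ± 15.8 CPM (0.29 ± 0.08, adjusted p = 0.0120), a call lost without rad6Δ replicate 2 or bre1Δ replicate 1 (adjusted p up to 0.0733). OPT2, an oligopeptide transporter, was lower by -0.61 ± 0.09, and DAL5, which carries allantoate and dipeptides, was higher by 0.51 ± 0.09. In all, 2 of 13 members were higher and 3 lower.

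Proteasome subunit genes were higher in rad6Δ than in bre1Δ by small amounts. Of 33 subunits, 19 were higher and 0 lower (57.6% called against 20.8% of all genes), with a median of 0.24 and a range of 0.06 to 0.50. RPT1, an ATPase of the regulatory particle, stood at 345, 364 and 370 CPM in rad6Δ, at 256, 259 and 246 in bre1Δ and at 304, 319 and 316 in WT. The rad6Δ values lay above WT and those of bre1Δ below it (0.50 ± 0.06 between the deletions, adjusted p = 1.10e-05). RPT5 stood at 447, 446 and 488 CPM in rad6Δ and at 334, 355 and 344 in bre1Δ (0.42 ± 0.07, adjusted p = 0.000143). RPT3 differed by 0.39 ± 0.06 and PRE7, a subunit of the core particle, by 0.37 ± 0.07. The count moved with the libraries used: 25 with library totals alone, 11 with the 6 libraries alone in the fit and 12 without rad6Δ replicate 1; the median stayed between 0.23 and 0.33 and no member was lower under any of these.

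The PACE motif was found in 27 of the 33 subunit promoters (81.8%), between 75 and 174 bases before the first codon, and in 72 of all 5606 promoters (1.28%). All 19 subunits that were higher carried it, and 0 of the 6 without it were called, although these too lay above 0 with a median of 0.16 against 0.26 for carriers. Outside the subunits, 45 genes carried PACE, with a median of 0.20. Against 8.92% higher and 11.9% lower over all genes, 16 of these 45 were higher in rad6Δ and 2 lower. ECM29, a proteasome-binding protein, is 1 of these (0.45 ± 0.09, adjusted p = 0.00122); UBA1, the ubiquitin-activating enzyme (0.33 ± 0.08, adjusted p = 0.00461), and YAP1, an oxidative stress regulator (0.41 ± 0.07, adjusted p = 0.000478), were named after their values were seen. RPN4 itself, which binds this motif, stood at 168, 172 and 174 CPM in rad6Δ and at 183, 159 and 146 in bre1Δ and did not pass the test (0.08 ± 0.09, adjusted p = 0.591). Its transcript level says nothing of its protein, which Ubr2 and Rad6 control. UBR2 was higher in rad6Δ, at 71.1, 69.6 and 74.9 CPM against 44.8, 57.3 and 46.0 (0.53 ± 0.13, adjusted p = 0.00557). Of the 21 genes of Ubr2, Rpn4 and proteasome accessory factors, 8 were higher and 0 lower; UFD1 and NPL4, partners of the Cdc48 ATPase, differed by 0.47 ± 0.07 and 0.44 ± 0.08, and UMP1, an assembly chaperone, by 0.39 ± 0.08.

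**Figure D3:**
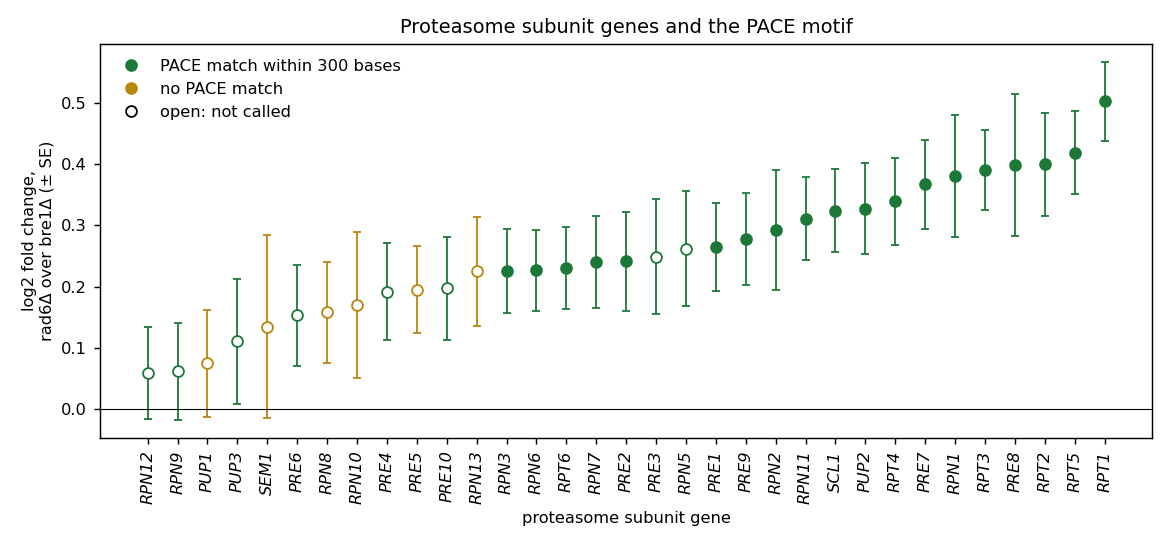
Log2 fold change of rad6Δ over bre1Δ (± SE) for the 33 proteasome subunit genes in order of value; green points carry the PACE motif within 300 bases before the first codon, brown points do not, and filled points were called. All 19 filled points are green, and all 33 values lie above 0.

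RAD18, the ligase gene of the PCNA branch, stood at 23.9, 28.2 and 29.7 CPM in rad6Δ and at 30.1, 26.4 and 25.3 in bre1Δ, which overlapped (log2 fold change -0.0038 ± 0.10, adjusted p = 0.985). In the list of Rad18 and post-replication repair, 1 of 13 members was higher and 1 lower (15.4% called against 20.8% of all genes). SRS2, a DNA helicase, was higher by 0.39 ± 0.07; POL30, which encodes PCNA, was lower by -0.29 ± 0.10 (adjusted p = 0.0333, up to 0.183 over the alternatives). Of 23 genes of the DNA damage response, 5 were higher and 2 lower (30.4% called, median 0.06). DUN1, a checkpoint kinase, stood at 69.9 ± 1.58 CPM in rad6Δ, 47.1 ± 2.28 in bre1Δ and 41.3 ± 1.19 in WT (0.57 ± 0.07, adjusted p = 9.14e-06). RAD54, a DNA translocase of homologous recombination, was higher by 0.67 ± 0.10 and MAG1, a DNA glycosylase, by 0.70 ± 0.10. RNR3, a ribonucleotide reductase gene often read as a damage reporter, overlapped between the deletions (14.7 against 16.5 CPM, adjusted p = 0.461).

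Among metabolic genes of poor carbon sources, nitrogen and one-carbon units, about as many members were higher in rad6Δ as did not pass the test. Of 34 genes of the glyoxylate cycle, fatty acid use and gluconeogenesis, 16 were higher and 1 lower (median 0.35; 11 to 16 higher over the alternatives). PDH1, a mitochondrial enzyme of propionate use, stood at 29.0, 25.8 and 28.1 CPM in rad6Δ, at 12.2, 10.7 and 12 in bre1Δ and at 7.69, 5.74 and 5.84 in WT (1.25 ± 0.14, adjusted p = 2.29e-06). POT1, the thiolase of peroxisomal fatty acid breakdown, stood at 15.1, 12.7 and 11.2 CPM in rad6Δ and at 6.50, 6.27 and 4.74 in bre1Δ (1.13 ± 0.20, adjusted p = 0.000317). ADR1, an activator of such genes, was higher by 0.49 ± 0.07 and MDH2, cytosolic malate dehydrogenase, by 0.53 ± 0.07.

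Of 48 genes of respiration and the TCA cycle, 19 were higher and 2 lower, SDH2 of succinate dehydrogenase by 0.62 ± 0.08 and IDH2 of isocitrate dehydrogenase by 0.54 ± 0.07; 9 were higher with the 6 libraries alone, 10 without rad6Δ replicate 1 or bre1Δ replicate 2, and 12 without bre1Δ replicate 3. Of 19 glycolysis and fermentation genes 5 were lower and 0 higher (26.3% called against 20.8% of all genes). Without bre1Δ replicate 1, however, 14 were lower. With the 6 libraries alone, without rad6Δ replicate 3 or without bre1Δ replicate 3, 3 were lower. Against WT, 11 of the 19 were higher and 0 lower in bre1Δ (median 0.37). In rad6Δ 2 were higher than WT and 1 lower (median 0.07). Over all genes, 22.3% were higher than WT in bre1Δ and 24.8% in rad6Δ. ENO2, the main enolase, stood at 4701, 5085 and 7934 CPM in bre1Δ, the last of these in replicate 3. It stood at 3894, 3491 and 3511 CPM in rad6Δ and at 3497, 3240 and 3161 CPM in WT (-0.70 ± 0.16 between the deletions, adjusted p = 0.00400).

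Of 29 genes under nitrogen catabolite repression, 15 were higher and 0 lower (median 0.28). GAP1, the general amino acid permease, stood at 89.5, 80.5 and 81.4 CPM in rad6Δ, at 42.4, 46.6 and 54.1 in bre1Δ and at 38.1, 40.0 and 40.7 in WT (0.82 ± 0.12, adjusted p = 6.23e-05). MEP2, an ammonium permease, stood at 55.1, 57.5 and 54.8 CPM in rad6Δ against 27.4, 31.8 and 38.3 in bre1Δ (0.79 ± 0.11, adjusted p = 2.44e-05). DUR12, urea amidolyase, was higher by 0.70 ± 0.10 and GAT1, a GATA activator of these genes, by 0.65 ± 0.13. The sequence GATAAG, the core that GATA factors bind, was found in 14 of the 29 promoters (48.3%) against 14.5% of all promoters; 7 of the 14 carriers and 8 of the 15 others were higher.

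GCV1 and GCV2, subunits of the glycine cleavage complex that feeds one-carbon units, lay on opposite sides of WT in the deletions. GCV1 stood at 227, 217 and 235 CPM in rad6Δ, at 108, 115 and 127 in bre1Δ and at 171, 168 and 187 in WT (0.95 ± 0.08, adjusted p = 1.35e-08). GCV2 stood at 252, 246 and 246 CPM in rad6Δ, at 129, 127 and 140 in bre1Δ and at 186, 174 and 190 in WT (0.91 ± 0.07, adjusted p = 1.65e-08). The 3 strains did not overlap for either gene. Of 22 genes of purine synthesis and one-carbon metabolism, 10 were higher and 0 lower (median 0.30), ADE17 of purine synthesis by 0.56 ± 0.09 and GCV3 by 0.52 ± 0.09.

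**Figure D4:**
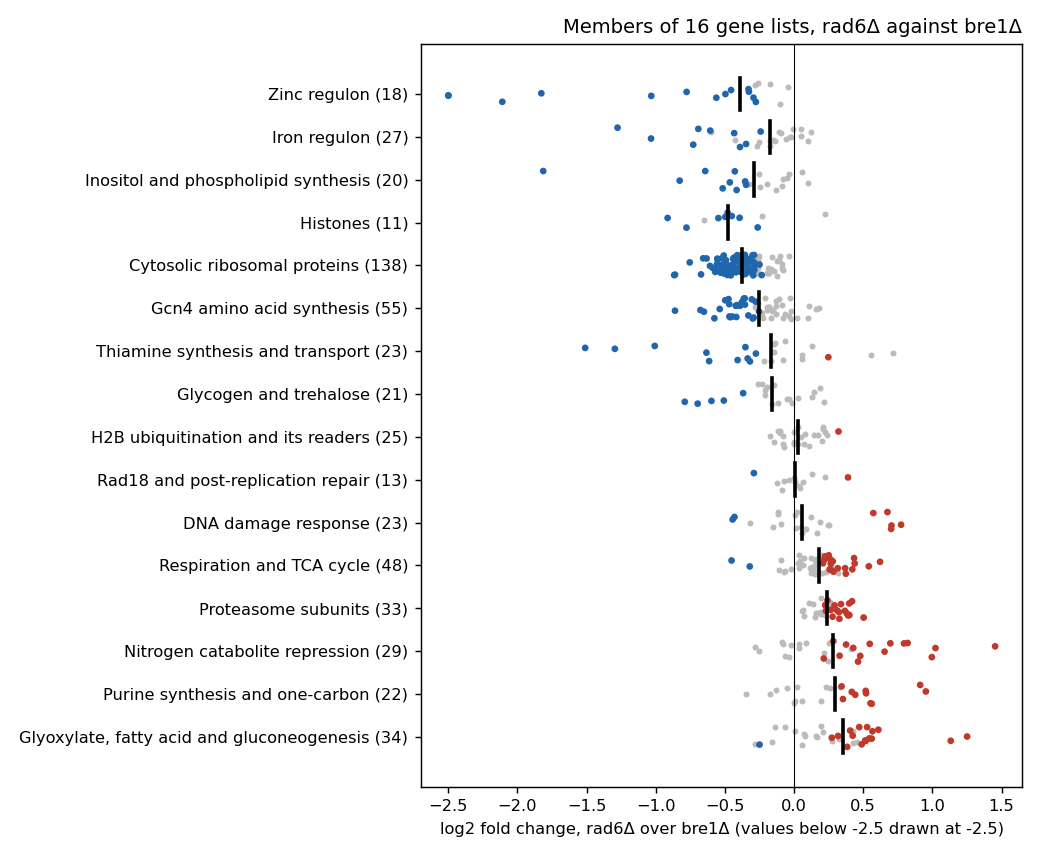
Log2 fold change of rad6Δ over bre1Δ for the tested members of 16 gene lists (number tested in brackets); red and blue points were called higher and lower, grey points were not called, black bars mark medians, and values below -2.5 (ZPS1, VEL1) are drawn at -2.5. Zinc, histone and ribosomal protein genes lie to the left, H2B ubiquitination genes around 0, and proteasome, nitrogen, purine and glyoxylate genes to the right.

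Most cytosolic ribosomal protein genes were lower in rad6Δ than in bre1Δ. Of 138 tested, 96 were lower and 0 higher (69.6% called, median -0.37), and all 138 values lay below 0. The count was 61 with the 6 libraries alone, and it stayed between 68 and 102 when single libraries were left out. RPL18B stood at 108, 102 and 93.0 CPM in rad6Δ, at 186, 168 and 201 in bre1Δ and at 146, 160 and 144 in WT, on either side of WT (-0.87 ± 0.09, adjusted p = 1.11e-06). RPL7B stood at 79.3 ± 13 CPM in rad6Δ, 145 ± 11.1 in bre1Δ and 150 ± 1.71 in WT (-0.86 ± 0.10, adjusted p = 2.69e-06). Reads of the paired copies of ribosomal protein genes may be split, so single copies are uncertain. Of 109 ribosome biogenesis genes 17 were lower and 2 higher (17.4% called, below the share over all genes; median -0.10), 5 lower with library totals alone, 11 with the 6 libraries alone, 9 or 10 without rad6Δ replicate 1 or 3 or bre1Δ replicate 2, and 30 without bre1Δ replicate 1. Of 67 mitochondrial ribosomal protein genes 6 were lower and 0 higher (8.96% called, below the share over all genes). For this list 3 were lower without bre1Δ replicate 1 or with the 6 libraries alone, and 2 with library totals alone.

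Of 55 targets of Gcn4, the activator of amino acid synthesis, 26 were lower in rad6Δ and 0 higher (median -0.25; 18 lower and 2 higher with library totals alone). ARG3, ornithine carbamoyltransferase, stood at 35.9, 40.0 and 29.0 CPM in rad6Δ, at 69.8, 59.8 and 62.6 in bre1Δ and at 76.1, 78.1 and 75.7 in WT (-0.86 ± 0.10, adjusted p = 2.17e-06). ARG1, also of arginine synthesis, differed by -0.65 ± 0.09. The Gcn4 site TGACTC was found in 37 of the 55 promoters (67.3%) against 8.03% of all promoters, and 18 of the 37 carriers and 8 of the 18 others were lower.

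SAM2, an S-adenosylmethionine synthetase, stood at 224, 211 and 191 CPM in rad6Δ, at 441, 484 and 529 in bre1Δ and at 685, 633 and 643 in WT, with no overlap among the strains (-1.22 ± 0.08, adjusted p = 1.13e-09). Among the 30 genes of sulfur amino acids 7 were lower and 1 higher (26.7% called against 20.8% of all genes). Of 23 thiamine genes 10 were lower and 1 higher (5 lower with library totals alone). THI4, an enzyme that builds the thiazole ring, stood at 11, 10.0 and 11.6 CPM in rad6Δ, at 26.1, 29.3 and 38.1 in bre1Δ and at 4.82, 6.29 and 5.27 in WT, so that both deletions lay above WT and bre1Δ furthest (-1.51 ± 0.14, adjusted p = 7.33e-08). THI73, a permease-like gene, stood apart in bre1Δ, at 58.9 ± 9.41 CPM against 23.8 ± 1.54 in rad6Δ and 25.4 ± 2.15 in WT (-1.30 ± 0.12, adjusted p = 1.95e-07). IMA5, an alpha-glucosidase, had the same order, with 41.9 ± 3.13 CPM in bre1Δ, 17.9 ± 3.47 in rad6Δ and 19.3 ± 1.01 in WT (-1.22 ± 0.11, adjusted p = 5.56e-08).

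Of 40 cell wall genes 10 were lower and 3 higher (5 lower and 1 higher with the 6 libraries alone; 5 or 6 lower without rad6Δ replicate 2 or 3 or bre1Δ replicate 3). In the glycogen and trehalose list, 5 of 21 were lower and 0 higher (23.8% called against 20.8% of all genes). GSY1, glycogen synthase, stood at 346 ± 28.4 CPM in rad6Δ, 599 ± 5.75 in bre1Δ and 834 ± 11.5 in WT (-0.79 ± 0.09, adjusted p = 2.93e-06).

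SSA3, a stress-inducible Hsp70 chaperone, had the highest fold change among the genes chosen by level and non-overlap, and its rad6Δ values lay apart from both other strains. It stood at 49.5, 51.4 and 50.0 CPM in rad6Δ, at 21.9, 19.6 and 18.2 in bre1Δ and at 19.8, 21.2 and 20.5 in WT (1.33 ± 0.09, adjusted p = 1.10e-09). Of 27 chaperones, SSA3 included, 4 were higher and 5 lower, SSA2 by -0.50 ± 0.10; 2 were higher without rad6Δ replicate 2, and 2 were lower without rad6Δ replicate 1 or 3 or bre1Δ replicate 3 or with library totals alone; with the 6 libraries alone 1 was higher and 2 lower. Of 33 targets of the stress activators Msn2 and Msn4, 7 were higher and 1 lower (24.2% called against 20.8% of all genes). With library totals alone 10 were higher, and 3 or 4 without rad6Δ replicate 2 or 3 or bre1Δ replicate 2. Both deletions lay below WT for this list. The medians were -0.29 in rad6Δ (3 higher, 20 lower) and -0.38 in bre1Δ (1 higher, 19 lower). Over all genes, 24.8% were lower than WT in rad6Δ and 22.1% in bre1Δ. HSP12 was higher in rad6Δ than in bre1Δ by 0.43 ± 0.10. JLP1, a sulfonate dioxygenase, differed by 1.05 ± 0.14, RIM4, an RNA-binding protein of meiosis, by 0.94 ± 0.12 and SET4, a SET-domain protein, by 0.91 ± 0.14. GIC2, an effector of the polarity GTPase Cdc42, stood at 28.4 ± 1.70 CPM in rad6Δ, 14.3 ± 2.44 in bre1Δ and 17.6 ± 0.717 in WT (0.97 ± 0.13, adjusted p = 1.56e-05).

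Mating genes of both cell types were higher in rad6Δ. Of 5 a-specific genes tested, 4 were higher (2 without bre1Δ replicate 2, and 1 with a filter of at least 10 CPM, which left fewer genes tested), and the list summed to 54.9 to 59.6 CPM in rad6Δ, 38.2 to 43.7 in bre1Δ and 40.3 to 42.8 in WT. MFA2 stood at 1.41, 2.01 and 1.36 CPM in rad6Δ and at 0.424, 0.228 and 0.197 in bre1Δ (2.45 ± 0.55, adjusted p = 0.00324), a few counts per library. The alpha-specific genes, with 4 of 5 higher, summed to 2443 to 2596 CPM in rad6Δ, 1864 to 2144 in bre1Δ and 2559 to 3004 in WT; MF(ALPHA)1 differed by 0.37 ± 0.12 (adjusted p = 0.0337, up to 0.150 over the alternatives), and 1 of the 5 was higher with the 6 libraries alone and 1 or 2 without any rad6Δ replicate or without bre1Δ replicate 2 or 3. Of 35 pheromone response genes 10 were higher and 3 lower, FUS3, the mating kinase, by 0.44 ± 0.09, and PRM1, a protein of cell fusion, by 0.84 ± 0.17.

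The remaining lists are given by their counts, against 20.8% called over all genes. Of 46 meiosis genes tested 4 were higher and 1 lower, and of 23 phosphate genes 3 were higher and 1 lower. Of 17 hexose transporters and sensors 1 was higher and 5 lower (35.3% called). Of 10 flocculins and other cell-surface genes 2 were higher (20.0%), and of 28 mitochondrially encoded genes 6 were lower (21.4%). For the hexose list 2 or 3 were lower without any rad6Δ replicate or without bre1Δ replicate 2, and for the mitochondrial list 2 or 3 were lower without rad6Δ replicate 1 or 3 or bre1Δ replicate 2. With library totals alone 9 meiosis genes were higher. Without any single library except bre1Δ replicate 3, 1 member of the flocculin and cell-surface list was higher, and this was not FLO1. Of the auxotrophy markers other than TRP1, LEU2 was lower by -0.20 ± 0.07 (adjusted p = 0.0428, up to 0.398 over the alternatives), and URA3 and HIS3 overlapped between the deletions. PHO5, the secreted phosphatase, stood at 31.2, 32.7 and 32.0 CPM in rad6Δ and at 35.6, 33.7 and 37.3 in bre1Δ (-0.15 ± 0.10, adjusted p = 0.320). FLO1, a flocculin, was higher in rad6Δ at 27.6 against 20.9 CPM (adjusted p = 0.0299, lost without any rad6Δ replicate or without bre1Δ replicate 1 or 2, up to 0.136), with 9.04 CPM in WT. MTH1, a regulator of hexose transporter genes, was lower at 110, 128 and 108 CPM against 244, 232 and 194 (-0.95 ± 0.10, adjusted p = 5.36e-07).

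Against WT, 49.7% of genes were called in rad6Δ and 44.4% in bre1Δ. These 2 comparisons share the WT libraries, so their values are set side by side and not tested against each other. The zinc list had a median of -0.54 in rad6Δ and 0.09 in bre1Δ, and the iron list -0.30 and 0.00. For histones the medians were -0.77 and -0.19, and for inositol and phospholipid synthesis -0.61 and -0.40, both below WT. Cytosolic ribosomal proteins had medians of -0.08 in rad6Δ and 0.27 in bre1Δ, and Gcn4 targets -0.05 and 0.20. In bre1Δ both medians lay above WT. In rad6Δ they lay near it, with 4 ribosomal protein genes higher and 35 lower, and 13 Gcn4 targets higher and 18 lower. For proteasome subunits rad6Δ lay above WT, at 0.11, and bre1Δ below, at -0.13. Nitrogen genes had medians of 0.52 and 0.26, and glyoxylate genes 0.50 and 0.10. Ribosome biogenesis genes lay above WT in both deletions. Of 109, 79 were higher and 1 lower in rad6Δ (median 0.41), and 92 were higher and 0 lower in bre1Δ (median 0.51). Over all genes, 24.8% were higher than WT in rad6Δ and 22.3% in bre1Δ.

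**Figure D5:**
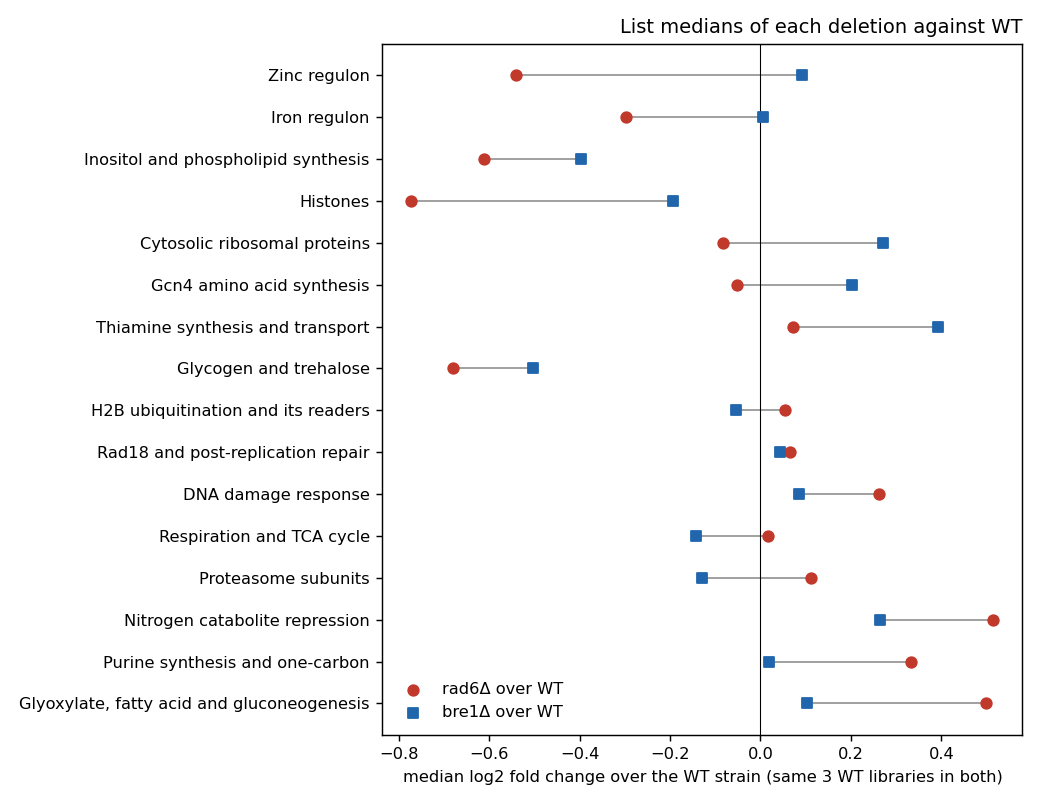
Median log2 fold change over WT of 16 gene lists in rad6Δ (red circles) and bre1Δ (blue squares), joined by a line; the same 3 WT libraries enter both values. The widest lines belong to zinc genes (-0.54 and 0.09) and histones (-0.77 and -0.19), and the narrowest to the Rad18 list.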

How the data were processed

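The values used are the gene counts that the authors deposited, unnormalized whole numbers of reads. Tools listed in the submitters' processing notes are STAR 2.6.1b, cutadapt 1.16, featureCounts 1.6.3 and DESeq2 1.20, and builds sacCer3 and R64. Strand and multiple-mapping settings are not stated in the labels, so near-identical copies and overlapping or antisense genes are uncertain. The deposited rlog values were not used. Of 5746 genes (3 lines held no values), 5633 were matched to R64 by locus tag and 89 by symbol.

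One model was fitted to all 18 libraries with edgeR 4.0.16 (R 4.3.3): filterByExpr left 5630 genes, TMM scaling, robust quasi-likelihood, glmQLFTest, two-sided, a biological coefficient of variation of 8.55% on 12 residual degrees of freedom, Benjamini-Hochberg adjustment over all genes tested, threshold 0.05. The procedure was tested on simulated data. CPM are counts scaled to a common TMM-scaled total, ± SD over 3 libraries; log2 fold changes are rad6Δ over bre1Δ unless stated, ± SE. Replicates are RNA isolates, so p-values measure the spread between these, shared over all strains in the fit.

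The members and the 39 gene lists were chosen with earlier results of these data known, and lists are described by counts and medians without a set test. Named genes were RAD6, BRE1, the 10 highest and 10 lowest fold changes among called genes with at least 10 CPM in the higher strain, no overlap and a symbol other than the systematic name, at most 4 members of lowest adjusted p in each list, and a fixed set: PTR2, CUP9, UBR1, UBR2, RPN4, RAD18, HTB1, HTB2, INO1, ZPS1, ZRT1, TRP1, GEP7, PHO5, RNR3, MFA2 and MF(ALPHA)1. ZAP1 was added after its values were seen. Some of the named genes and 1 list are not reported here. Motifs were sought in the 300 bases before each of 5606 open reading frames. The alternatives were other scalings and filters, the DESeq2 1.42.0 Wald test, the 6 libraries alone, the replicate number as a block and leaving out each replicate.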

Additional observations from a re-analysis of the deposited data

How the results depend on the processing

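The count of 1170 genes became 748 (289 higher in rad6Δ, 459 lower) with the 6 libraries alone in the fit. Of these 748, 739 were among the 1170. That fit takes the spread from rad6Δ and bre1Δ alone, on fewer degrees of freedom, and the reason for the lower count was not tested. With library totals alone 1126 genes were called, 770 higher and 356 lower (68.4% higher against 42.9%), and the median of all genes was 0.10 against 0.01. A filter of at least 10 CPM left 29 genes with differences of at least 2-fold in place of 51, since low genes were not tested. The DESeq2 test called 1197 genes, 1097 of them shared. Leaving out single replicates gave 783 to 1092 called genes, 335 to 433 higher and 448 to 659 lower, and 48 to 57 of at least 2-fold. No gene called under both changed sign under any alternative. Over the alternatives, the named genes stayed on the same side of the threshold in 2183 values, lost the call in 123 and gained it in 5; uncalled genes near 0, such as HIS3 and RAD18, turned sign in some. The list medians of chaperones, phosphate genes, hexose transporters, G1 cyclins, cell wall and sulfur genes changed sign with library totals alone. Correlations of same-numbered libraries were -0.13, 0.33 and -0.22, and those of other pairs ran from -0.35 to 0.41. The replicate numbers were thus not taken as pairs, and a batch shared in another order was not tested. With the number as a block, 1083 genes were called, 452 higher and 631 lower, and 54 of at least 2-fold. Depths of 5654417 to 10800185 counts leave genes of a few CPM, such as MFA2, with few counts.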
